A study of Mus musculus with 16 samples.

Results

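The genes described here are those of mitosis and chromosome segregation, 47 genes that encode the kinases, cyclins, spindle motors, checkpoint proteins, condensins and cytokinesis proteins of the dividing cell, with the transcription factors that drive them. They were chosen by name and role, not by their level, though with earlier results of these data known. Of the 47, 41 were measured, among 8251 genes with a probe set of 1 symbol. Ccnb1, Cdc25b, Bub1b, Espl1, Hmmr and Cenpf had no such probe set and are named only. Where a gene had several probe sets, the one with the highest mean signal was used.

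Total RNA of whole mouse lungs was measured on 16 Affymetrix U74Av2 arrays, 1 lung per array. T1α(-/-) lungs carry a targeted null allele of T1α (Pdpn), a membrane protein of the flat type I cells of the alveolus, on both chromosomes and in every cell of the animal, and T1α(+/+) lungs are wild type. Both came from crosses of heterozygous mice, and the strain is not given in the sources used here. There were 5 lungs of each genotype at embryonic day 18.5 (E18.5) and 3 of each at term, taken just after delivery, so the comparisons answer how the genes differ between the genotypes at each time and between the times in each genotype. Values in sentences below follow the order of the replicate letters, A to E for E18.5 (-/-), I to M for E18.5 (+/+), F to H for term (-/-) and N to P for term (+/+).

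A cell enters mitosis when Cdk1, bound to cyclins A and B, is switched on, and Plk1 and the aurora kinases carry the signal to the centrosomes, the spindle and the chromosomes. Condensins compact the chromosomes, kinesins build the spindle, and the checkpoint holds the cell until each chromosome is attached. Cdc20 then directs the anaphase-promoting complex to destroy cyclin B and securin, and the midzone proteins split the cell. Most of these genes are transcribed late in the cell cycle under the DREAM and MuvB complexes, B-Myb and FoxM1, through a promoter element called the cell cycle genes homology region (CHR), often with CCAAT boxes that bind NF-Y. The fetal lung contains many dividing cells, and division slows as the distal airspaces mature.

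The promoter stretches of 8 genes of different roles are shown because the genes share these elements. That of Cdc16, a subunit of the anaphase-promoting complex, is shown as an example with neither. The stretches come from RefSeq (GRCm38.p6), run 5′ to 3′ on the gene's strand, and cover the 100 bases before the annotated start and the first 50 after it. Capitals mark CHR (TTTGAA or TTCGAA) and CCAAT matches on either strand, so that a match on the other strand reads TTCAAA or ATTGG.
Cdk1 (chr10:69352863-69353012, minus strand): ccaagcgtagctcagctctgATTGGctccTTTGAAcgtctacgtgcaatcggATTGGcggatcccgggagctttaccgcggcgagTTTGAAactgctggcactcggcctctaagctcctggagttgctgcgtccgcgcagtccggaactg
Ccnb2 (chr9:70421505-70421654, minus strand): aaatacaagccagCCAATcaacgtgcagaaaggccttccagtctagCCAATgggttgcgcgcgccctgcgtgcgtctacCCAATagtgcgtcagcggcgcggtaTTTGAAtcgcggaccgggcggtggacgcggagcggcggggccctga
Cdc20 (chr4:118437294-118437443, minus strand): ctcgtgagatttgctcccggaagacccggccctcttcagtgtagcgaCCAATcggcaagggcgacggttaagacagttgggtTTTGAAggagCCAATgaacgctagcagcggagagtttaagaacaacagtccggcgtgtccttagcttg
Plk1 (chr7:122159335-122159484, plus strand): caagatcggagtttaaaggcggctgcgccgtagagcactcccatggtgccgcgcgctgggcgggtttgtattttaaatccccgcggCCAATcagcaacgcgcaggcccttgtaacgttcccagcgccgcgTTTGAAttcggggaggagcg
Aurka (chr2:172370521-172370670, minus strand): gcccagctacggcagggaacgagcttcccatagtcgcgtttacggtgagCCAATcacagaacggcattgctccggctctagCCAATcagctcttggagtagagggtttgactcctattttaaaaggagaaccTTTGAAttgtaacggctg
Kif11 (chr19:37376282-37376431, plus strand): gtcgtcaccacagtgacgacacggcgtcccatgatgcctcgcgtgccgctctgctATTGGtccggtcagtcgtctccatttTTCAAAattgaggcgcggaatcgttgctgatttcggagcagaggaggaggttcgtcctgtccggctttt
Cenpa (chr5:30666786-30666935, plus strand): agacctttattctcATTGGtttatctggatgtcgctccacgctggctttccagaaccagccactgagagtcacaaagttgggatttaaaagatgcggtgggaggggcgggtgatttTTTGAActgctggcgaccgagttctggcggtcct
Prc1 (chr7:80294351-80294500, plus strand): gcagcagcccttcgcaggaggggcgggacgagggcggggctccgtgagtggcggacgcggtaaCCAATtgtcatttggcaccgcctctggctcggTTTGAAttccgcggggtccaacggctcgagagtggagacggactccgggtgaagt
Cdc16 (chr8:13757556-13757705, plus strand): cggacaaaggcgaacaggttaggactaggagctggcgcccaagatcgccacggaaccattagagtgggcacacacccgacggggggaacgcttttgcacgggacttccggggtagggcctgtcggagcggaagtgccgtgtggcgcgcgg

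A promoter window of 300 bases, 250 before the start and 50 after it, was listed for 38 of the 47 genes. Of these, 28 (73.7%) held a CHR match on either strand, compared with 18.2% of 17492 protein-coding genes. A CCAAT match was present in 31 (81.6%), compared with 39.0%, and both were present in 27 (71.1%), compared with 7.43%. Windows of 92 other mitotic genes lay between, with CHR in 35.9%, CCAAT in 51.1% and both in 17.4%, and those of 43 DNA replication genes held CHR in 18.6%, CCAAT in 58.1% and both in 11.6%. Within 50 bases of the start, 26 windows (68.4%) held a CHR match, compared with 4.41% of protein-coding genes, and 23 (60.5%) a CCAAT match, compared with 13.9%. The letters TTTCCCGC and TTTGGCGC, forms of the E2F site, were in 0 of the 38 windows, in 2.09% of all protein-coding windows, in 13.0% of those of other mitotic genes and in 25.6% of those of DNA replication genes. Birc5, Mad2l1, Cdc16, Pttg1, Tacc3 and Mybl2 had neither CHR nor CCAAT letters in the window, Ccnb1, Cks2, Nek2 and Cenpe had CCAAT letters alone, and Kif2c had CHR letters alone. Of those with neither, Birc5 and Pttg1 fell over time in both genotypes, as given below, while Cdc16 and Mad2l1 did not pass the test. A match describes letters in a window, and no binding was measured.

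**Figure D1:**
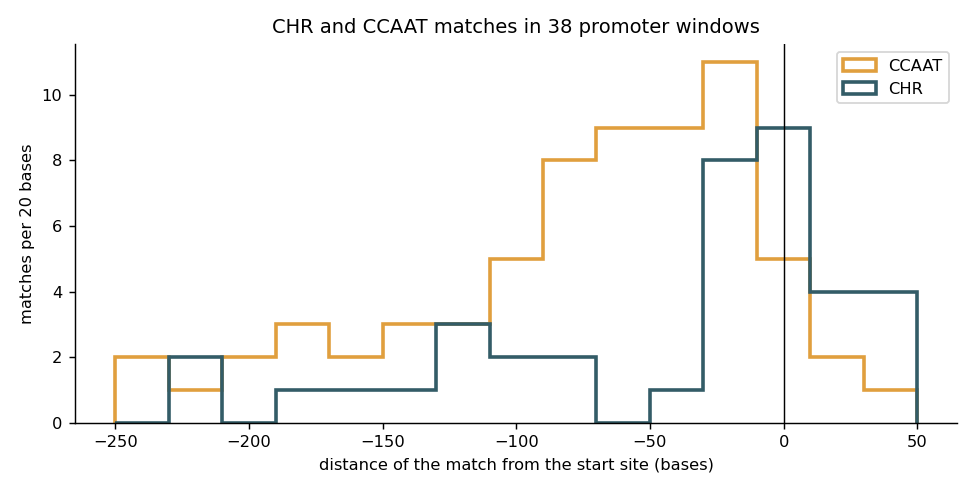
Number of CHR and CCAAT matches (vertical axis, per 20 bases) against the distance of the match from the annotated start (horizontal axis, in bases) in the 38 promoter windows of mitotic genes. CHR matches pile up around the start, where 26 of the 38 windows hold one within 50 bases.

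Each array had been scaled to the same trimmed mean, 100 to 101. T1α itself checked the labels: its signal was 1.4 to 21.2 on the E18.5 (-/-) arrays and 60.2 to 135.5 on the (+/+) arrays, and 8.6 to 30 against 39.7 to 214.9 at term. E18.5 (+/+) replicate I stood apart, with a mean signal of 35.3 for bacterial controls, where the other 15 arrays gave 3.58 to 11.1, so that genes of low signal read higher there. Medians and counts of calls that rest on this group are given without it where that moves them. Counts of genes lower or higher include it. The 3′ to 5′ ratio of GAPDH, a sign of RNA integrity, was 0.827 to 2.63, and was highest on term replicates G and O (2.63 and 2.55). That of actin was 2.72 on term (+/+) replicate N and 1.08 to 1.97 on the other 15 arrays.

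From E18.5 to term, nearly all of the genes were lower, in both genotypes. In (+/+) lungs 39 of the 41 were lower at term, with a median log2 difference of -1.01, against -0.17 over all 8251 genes. Of the 33 that passed the filter on low signals, 21 fell and 0 rose at an adjusted p under 0.05 in limma. Of all 6145 probe sets tested, 7.99% fell and 10.6% rose. A gene that is high at E18.5 alone passes this filter through that group, so the median over all 41 is given beside the count. Without replicate I, 20 fell and the median was -0.92. Mybl2, of low signal, was lower at term in (+/+) lungs only with replicate I, on which it read 84.9. In (-/-) lungs 39 of the 41 were again lower, with a median of -0.67 against -0.11 over all genes. There 15 of 30 fell and 1 rose, where 13% of 6193 probe sets fell and 13.8% rose. In these whole-lung samples, fewer dividing cells and less RNA per cell cannot be told apart. The labels name no batch, so time and any batch of the arrays cannot be told apart either. The highest signal on an array was 12978.7 to 29523.9 at E18.5 and 6159.4 to 10575.8 at term.

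**Figure D2:**
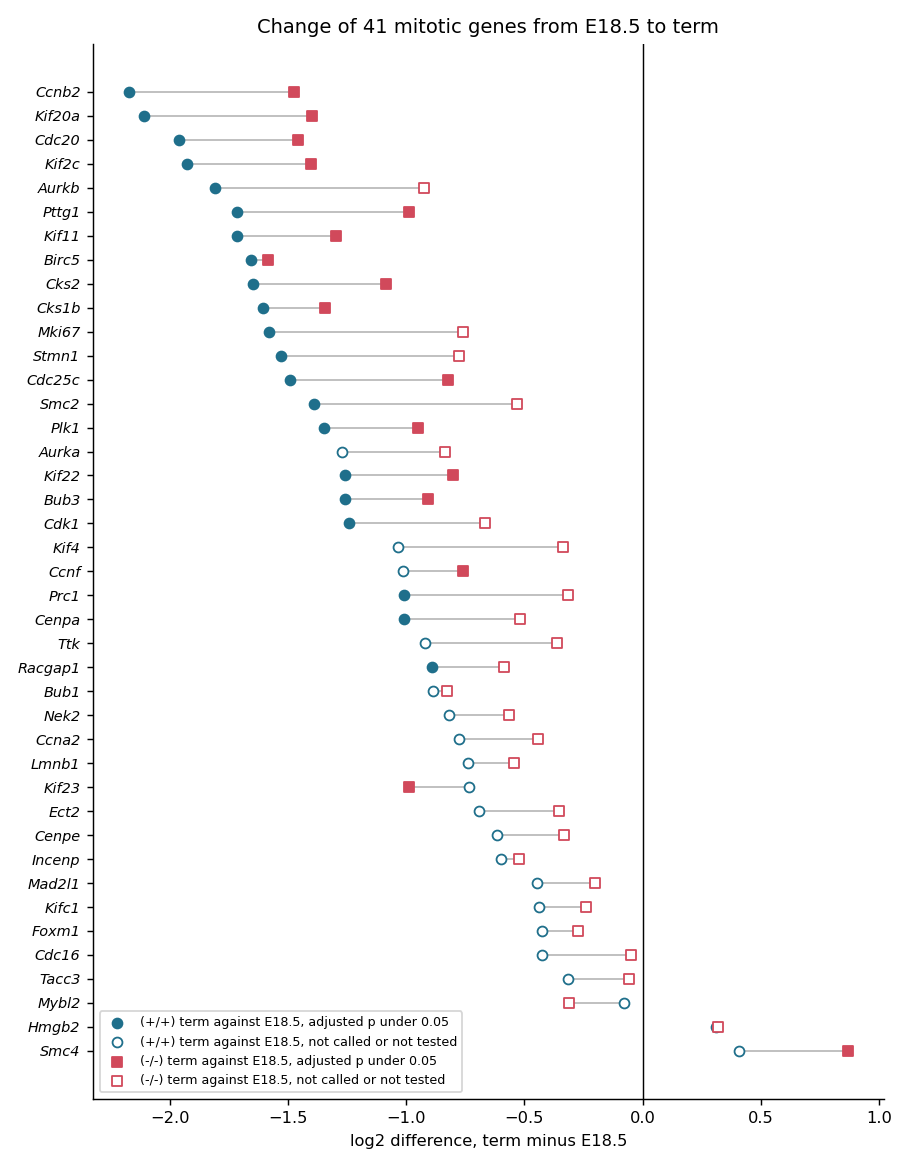
Log2 difference of term minus E18.5 (horizontal axis) for each of the 41 mitotic genes, in (+/+) lungs (circles) and (-/-) lungs (squares), with filled symbols for an adjusted p under 0.05. All but Smc4 and Hmgb2 lie left of 0 in both genotypes, from -2.17 for Ccnb2 in (+/+) lungs. Mybl2 lies there in (+/+) lungs only through replicate I.

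The kinases and cyclins of mitotic entry were all lower at term, 9 of 9 in both genotypes, with a median log2 difference of -1.35 in (+/+) and -0.82 in (-/-) lungs. Cdk1, the kinase that starts mitosis, gave signals of 309.7, 423, 321.7, 243.1 and 253.2 in E18.5 (+/+) lungs and 273, 164.2, 185.9, 188.9 and 254.3 in E18.5 (-/-) lungs. At term it gave 166.7, 99.6 and 101.9 in (+/+) and 176, 117.1 and 95.7 in (-/-) lungs. All E18.5 (+/+) values lay above all term values, while term (-/-) replicate F lay inside the E18.5 (-/-) range. Cdk1 fell 2.36-fold in (+/+) lungs (log2 difference -1.24 ± 0.27, SE, adjusted p = 0.00601) and differed by -0.67 ± 0.24 in (-/-) lungs (adjusted p = 0.0519).

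Ccnb2, a B-type cyclin, had the largest fall of the 41 in (+/+) lungs on the log2(signal + 16) scale. By the ratio of mean signals, E18.5 over term, it stood at 4.88, below Cenpe (8.42, from low signals), Kif2c (7.40), Aurkb (7.09), Kif20a (6.12) and Kif11 (5.44). It read 581.4, 944.5, 1224.1, 511 and 588.8 in E18.5 (+/+) and 813.3, 523.7, 500.8, 556.7 and 562.8 in E18.5 (-/-) lungs, then 115.1, 241.2 and 117.2 in (+/+) and 263.7, 238.6 and 124.1 in (-/-) lungs at term. No term array reached any E18.5 array of its genotype. The fall was 4.50-fold in (+/+) (-2.17 ± 0.34, adjusted p = 0.000794) and 2.78-fold in (-/-) lungs (-1.47 ± 0.26, adjusted p = 0.00217). Plk1, the polo kinase, read 228.8, 185.5, 326.1, 135.9 and 212 in E18.5 (+/+) and 194.3, 158.6, 155.8, 124.9 and 114.3 in E18.5 (-/-) lungs. Its term signals were 63.9, 84.7 and 71 in (+/+) and 74, 87.6 and 48.9 in (-/-) lungs. It fell by 1.35 on the log2 scale in (+/+) lungs and fell by 0.95 in (-/-) lungs (adjusted p = 0.00413 and 0.00945), with no overlap between the times. A second probe set of Plk1 gave -1.59 and -0.97, but another, of low signal, gave 0.52 and 0.31, so the 3 disagree.

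Cks1b, a small subunit of cyclin-dependent kinases, read 172.5, 444.2, 208, 164.1 and 244.6 in E18.5 (+/+) and 200, 247.4, 180.5, 219.4 and 344.1 in E18.5 (-/-) lungs. At term its signals were 39.6, 71.2 and 94.2 in (+/+) and 109.5, 59.7 and 82.5 in (-/-) lungs, below all those of E18.5. It fell 3.04-fold in (+/+) and 2.54-fold in (-/-) lungs, and Cks2, its relative, 3.13-fold and 2.12-fold. Cdc25c, a phosphatase that activates Cdk1, fell 2.81-fold and 1.77-fold. Ccnf, an F-box protein, read 232.3, 143.1, 70.6, 67.3 and 102.5 in (+/+) and 118.8, 186.8, 91.7, 88.1 and 103.6 in (-/-) lungs at E18.5. Signals at term were 30.9, 57.4 and 57.5 in (+/+) and 63.4, 72.2 and 48 in (-/-) lungs. The times did not overlap in either genotype, and limma gave -1.01 (adjusted p = 0.0505) and -0.76 (adjusted p = 0.0335). For Ccna2, cyclin A, the differences were -0.78 and -0.44, and for Nek2, a centrosome kinase, -0.82 and -0.57, and none of the 4 passed the test.

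**Figure D3:**
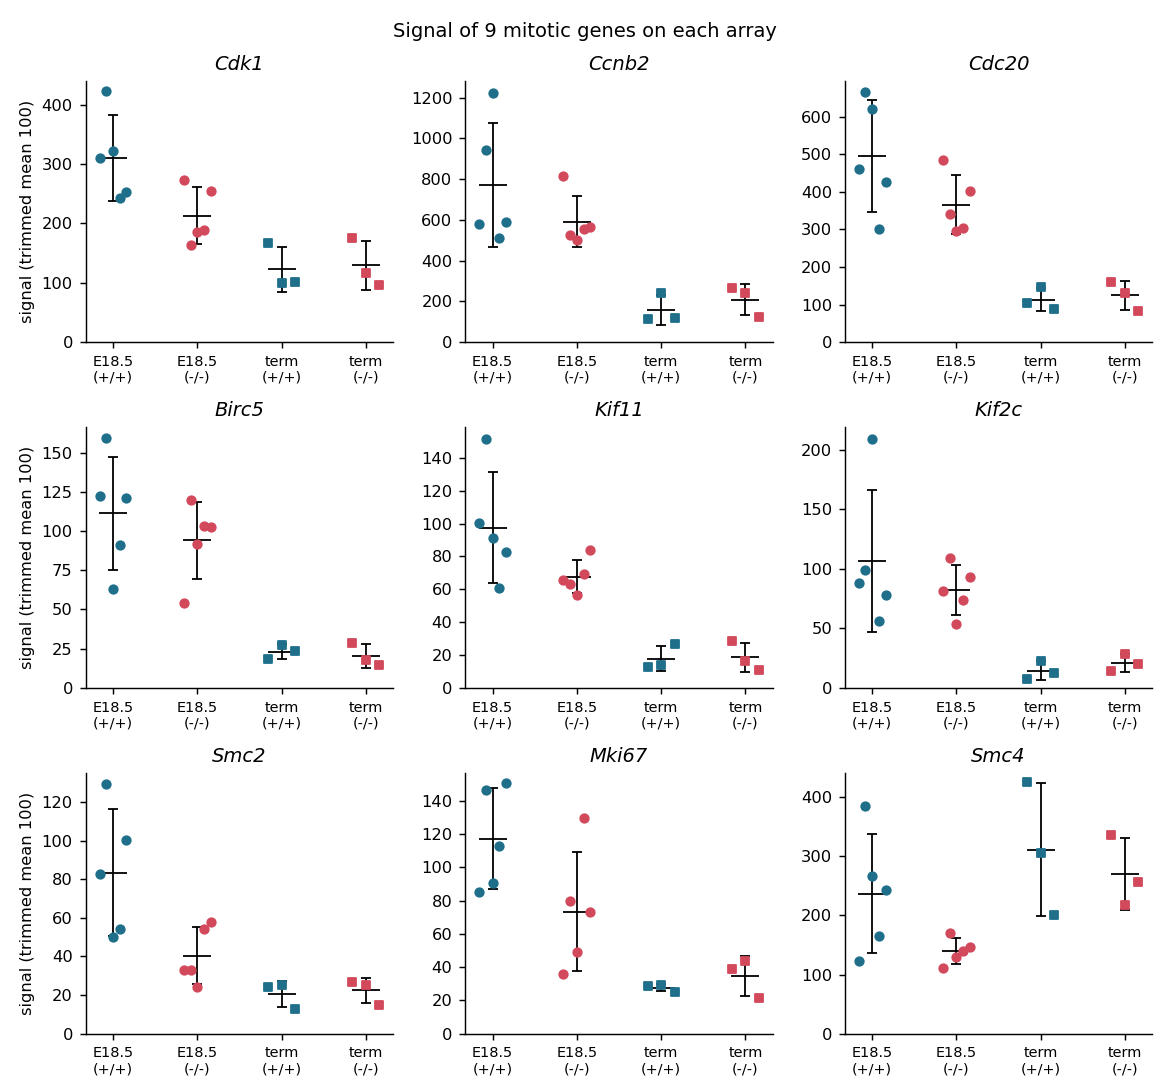
Signal (vertical axis, linear, scaled to a trimmed mean of 100) of 9 mitotic genes on each array, by time and genotype; bars give the mean and SD. The term arrays lie low for all but Smc4, whose signals were 200.9 to 425.9 at term.

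The aurora kinases and the chromosomal passengers, which correct faulty attachments of chromosomes to the spindle, were lower at term for 4 of 4 genes. Birc5 (survivin) read 122.2, 159.1, 62.9, 91 and 120.9 in E18.5 (+/+) and 54.2, 119.9, 91.6, 103 and 102.3 in E18.5 (-/-) lungs. At term it read 18.3, 27.4 and 23.8 in (+/+) and 28.9, 17.9 and 14.4 in (-/-) lungs. The times did not overlap, and Birc5 fell by 1.66 on the log2 scale in (+/+) lungs and fell by 1.58 in (-/-) lungs (adjusted p = 0.00163 and 0.00126), the largest fall of the 41 in (-/-) lungs. Aurkb, the kinase of this complex, fell 3.50-fold in (+/+) lungs (adjusted p = 0.00197) and differed by -0.92 ± 0.48 in (-/-) lungs (adjusted p = 0.163), where E18.5 signals ran from 20.5 to 137.6.

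Aurka, the centrosomal aurora kinase, was below the filter in all comparisons, so limma did not test it. Its signals were 58.2, 73.2, 40.4, 37.1 and 42.5 in E18.5 (+/+) and 30.5, 41.3, 35.2, 45.8 and 39 in E18.5 (-/-) lungs, and 6.6, 10 and 17.2 in (+/+) and 22.7, 11.4 and 10.2 in (-/-) lungs at term. Term and E18.5 did not overlap in either genotype. Incenp, the scaffold of the passengers, differed by -0.60 and -0.52.

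Of the spindle checkpoint genes, 4 of 4 were lower at term. Bub3, which recruits the checkpoint proteins to kinetochores, read 291.2, 730.9, 874.5, 434.5 and 442 in E18.5 (+/+) and 831.1, 587.9, 378.9, 372.5 and 483 in E18.5 (-/-) lungs. At term it read 189.6, 173.3 and 265.3 in (+/+) and 265.4, 197.6 and 345 in (-/-) lungs, with no overlap. It fell 2.39-fold and 1.88-fold (adjusted p = 0.0175 and 0.0303). Mad2l1, which holds Cdc20 inactive, read 69.5, 124, 93.7, 63.5 and 104 in (+/+) and 51.2, 56.6, 40.5, 54.5 and 92.9 in (-/-) lungs at E18.5. Signals at term were 80.5, 59.2 and 46.3 in (+/+) and 62, 41.5 and 41.9 in (-/-) lungs. Its times overlapped in both genotypes and its differences were -0.45 and -0.20.

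Bub1 and Ttk, the checkpoint kinases, were not tested. Bub1 read 49.6, 59.9, 20.4, 7.4 and 20.1 in E18.5 (+/+), 10.1, 38, 19.1, 24.2 and 18.3 in E18.5 (-/-), 8.5, 9.5 and 4.7 in term (+/+) and 9.4, 4.6 and 1.1 in term (-/-) lungs, all low signals. Ttk differed by -0.92 in (+/+) and -0.36 in (-/-) lungs.

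At anaphase the substrate adaptor and securin fell while a core subunit did not pass the test. Cdc20 read 461, 666, 621.3, 300.6 and 425.6 in E18.5 (+/+) and 484.2, 340.6, 295.3, 304.4 and 402.8 in E18.5 (-/-) lungs, and 104.7, 147.2 and 87.3 in (+/+) and 160.8, 130.1 and 83.3 in (-/-) lungs at term. No term array reached an E18.5 array. Cdc20 fell 3.89-fold in (+/+) (-1.96 ± 0.29, adjusted p = 0.000665) and 2.74-fold in (-/-) lungs (-1.46 ± 0.24, adjusted p = 0.00160). Pttg1, securin, read 383.4, 458.3, 341.6, 425.5 and 376.5 in (+/+) and 363.9, 397.8, 164.4, 357.6 and 379.2 in (-/-) lungs at E18.5, with C far below the rest, and 103.7, 115.4 and 108.2 in (+/+) and 155.5, 183.5 and 124.2 in (-/-) lungs at term. The times did not overlap in (+/+) lungs, and in (-/-) lungs C overlapped with term. Pttg1 fell 3.29-fold and 1.98-fold (adjusted p = 0.000321 and 0.0202). Cdc16 read 275.2, 231.6, 333.6, 250.4 and 230.5 in (+/+) and 196.3, 210.7, 156.3, 218.8 and 197.9 in (-/-) lungs at E18.5. Signals at term were 262, 218.1 and 120.4 in (+/+) and 200.3, 232.7 and 141.7 in (-/-) lungs, with the times overlapping. Its differences were -0.42 ± 0.28 and -0.05 ± 0.21, and the second turned to 0.06 when each array was centred on its median.

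Of the spindle motors and microtubule proteins, 7 of 7 were lower at term in both genotypes. Kif11, the motor that pushes the spindle poles apart, read 100.3, 151.8, 91, 60.7 and 83 in E18.5 (+/+) and 65.9, 63, 56.8, 69.1 and 84 in E18.5 (-/-) lungs. Its term signals were 13, 14.1 and 26.6 in (+/+) and 28.5, 16.2 and 11.2 in (-/-) lungs, all below those of E18.5. It fell 3.29-fold and 2.46-fold (adjusted p = 0.00160 and 0.00239). Kif2c, which depolymerises microtubules at kinetochores, read 88.5, 98.9, 209.2, 56.4 and 78.3 in (+/+) and 81.6, 109.3, 53.5, 74.1 and 92.8 in (-/-) lungs at E18.5. Signals at term were 7.3, 23 and 12.8 in (+/+) and 14.1, 28.4 and 20.3 in (-/-) lungs. Without overlap, it fell 3.81-fold and 2.64-fold (adjusted p = 0.00197 and 0.00194). Kif22, a chromosome-bound kinesin, fell 2.39-fold and 1.74-fold.

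Stmn1 (stathmin), which destabilises microtubules, read 428.6, 1221.1, 352.4, 623 and 726.3 in E18.5 (+/+) and 275.1, 180.9, 404.4, 451.4 and 683 in E18.5 (-/-) lungs, a wide spread. At term it read 142.5, 136.2 and 407.9 in (+/+) and 320.4, 137.6 and 194.2 in (-/-) lungs, with P, F and H inside the E18.5 range of their genotypes. It fell 2.88-fold in (+/+) lungs (adjusted p = 0.0174) and differed by -0.78 ± 0.37 in (-/-) lungs (adjusted p = 0.132). Kif4, Kifc1 and Tacc3 were not tested. They differed by -1.03, -0.44 and -0.31 in (+/+) lungs and by -0.34, -0.24 and -0.06 in (-/-) lungs. The Kifc1 probe set can detect related transcripts, so its values are uncertain. By their names, the probe sets used for Kif20a, Mybl2, Cdc25c, Pttg1, Plk1 and Foxm1 are also of designs that can share sequence with other transcripts, and those for Kif22 and Hmgb2 were designed under relaxed selection rules.

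The cytokinesis genes were lower at term for 5 of 5. Kif20a, a kinesin of the spindle midzone, read 134.4, 242, 307.9, 137.4 and 123.2 in E18.5 (+/+) and 165.4, 141.1, 61, 107.7 and 153.8 in E18.5 (-/-) lungs. At term it read 16.3, 51 and 25.3 in (+/+) and 64.4, 21.4 and 29.6 in (-/-) lungs, with F just above C among the (-/-) lungs. It fell 4.32-fold and 2.63-fold (adjusted p = 0.000827 and 0.00741), and its other probe set differed by -1.20 and -1.12. Prc1, which bundles midzone microtubules, and Racgap1, which with Kif23 forms the centralspindlin complex, fell 2.01-fold and 1.86-fold in (+/+) lungs. In (-/-) lungs they differed by -0.31 and -0.58 (adjusted p = 0.334 and 0.0824). Kif23 fell 1.98-fold in (-/-) lungs (adjusted p = 0.0275) and differed by -0.73 in (+/+) lungs (adjusted p = 0.0899). Ect2, the exchange factor that activates RhoA at the division plane, differed by -0.69 and -0.35.

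The chromosome proteins were the mixed group, with 5 of 7 lower at term. Smc2 and Smc4 are the paired core subunits of condensin. Smc2 read 82.7, 129.4, 50.3, 54.2 and 100.2 in E18.5 (+/+) and 32.8, 32.8, 24.3, 54.3 and 57.7 in E18.5 (-/-) lungs, and 24, 25 and 13 in (+/+) and 26.7, 25.4 and 15.1 in (-/-) lungs at term. It fell 2.62-fold in (+/+) lungs without overlap (adjusted p = 0.00685) and differed by -0.53 in (-/-) lungs, where it was below the filter. Smc4 went the other way. It read 123.3, 384.4, 267.3, 165.1 and 243.6 in E18.5 (+/+) and 111, 169.9, 130.5, 140.3 and 147 in E18.5 (-/-) lungs, and 425.9, 306 and 200.9 in (+/+) and 336.2, 217.7 and 256.3 in (-/-) lungs at term. In (-/-) lungs all 3 term values lay above all 5 E18.5 values, and Smc4 rose 1.82-fold (0.87 ± 0.21, adjusted p = 0.00988). In (+/+) lungs the times overlapped (0.41 ± 0.34, adjusted p = 0.419).

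Mki67, the Ki-67 protein that coats mitotic chromosomes, read 85.5, 146.5, 90.4, 113 and 150.5 in E18.5 (+/+) and 36, 79.5, 49.4, 129.4 and 73 in E18.5 (-/-) lungs. At term it read 28.8, 29 and 25.2 in (+/+) and 38.8, 43.9 and 21.2 in (-/-) lungs. It fell 2.99-fold in (+/+) lungs without overlap (adjusted p = 0.00119) and differed by -0.76 in (-/-) lungs (adjusted p = 0.0862), where the times overlapped. Its other probe set gave smaller differences, -0.38 and -0.34, with 19.2 to 83.1 at E18.5 and 13.4 to 49.7 at term in (+/+) lungs, which overlapped. Cenpa, the centromeric histone, read 146, 147.9, 100.6, 81.8 and 98.8 in (+/+) and 113.7, 78.3, 67.6, 127.9 and 80.9 in (-/-) lungs at E18.5. Signals at term were 55, 57.9 and 33.6 in (+/+) and 61.2, 62.1 and 54 in (-/-) lungs. The times did not overlap in either genotype, and Cenpa fell 2.01-fold in (+/+) lungs (adjusted p = 0.0177) and differed by -0.52 in (-/-) lungs (adjusted p = 0.0955).

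Lmnb1, a lamin of the nuclear envelope, differed by -0.74 and -0.55, neither of which passed the test, and Cenpe, the kinetochore motor, which was not tested, by -0.62 and -0.33. Hmgb2, a chromatin protein, read 51.3, 47.9, 49.4, 46.2 and 49.1 in E18.5 (+/+) and 31.8, 65.7, 33.3, 62.8 and 24.8 in E18.5 (-/-) lungs. At term it read 65.6, 52.5 and 76.9 in (+/+) and 41.9, 50.9 and 78.5 in (-/-) lungs, above all E18.5 values in (+/+) lungs, with differences of 0.31 and 0.32 that did not pass the test.

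Of the transcription factors of this programme, Foxm1 did not pass the test and Mybl2 was below the filter. Foxm1 read 207.8, 198.4, 167.4, 281.7 and 154.2 in E18.5 (+/+) and 141.2, 200.3, 195.1, 160.4 and 127.5 in E18.5 (-/-) lungs, and 120.9, 195.6 and 122.8 in (+/+) and 123.8, 170 and 108.1 in (-/-) lungs at term. Its times overlapped, with differences of -0.43 ± 0.27 and -0.27 ± 0.22. The other Foxm1 probe set, of low signal, differed by -0.58 and -0.75 without overlap, from 7.3 to 26.5 down to 2.7 to 4.5 in (+/+) and from 10.5 to 49.3 down to 3 to 5.4 in (-/-) lungs. Mybl2 (B-Myb), which was not tested, read 84.9, 42.7, 24.2, 24 and 33.7 in (+/+) and 30.5, 44.3, 44.7, 40.9 and 29.7 in (-/-) lungs at E18.5. Signals at term were 37.8, 55 and 19.8 in (+/+) and 29.2, 28.1 and 24.6 in (-/-) lungs. Its differences were -0.08 and -0.31, the first turning sign without replicate I, while its other probe set gave -0.58 and -0.84.

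For 12 of the 41 genes the array held other probe sets, 14 in all. Over time 13 of the 14 were lower at term in both genotypes, with medians of -0.52 and -0.42, and the exception was a Plk1 probe set. The other probe sets of Pttg1 (-0.46 and -0.08) and Stmn1 (-0.21 and -0.0019) read 27.6 and 13.7 at most and differed less than those used.

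Over the 41 genes, term and E18.5 did not overlap, with term lower, for 27 in (+/+) and 17 in (-/-) lungs. Among those tested this was 23 of 33, where 11.6% of all probe sets tested did so, and 14 of 30, where 14.7% did so. The smallest p that an exact permutation test of 3 against 5 lungs allows is 0.0357. Both genotypes called 13 genes, Birc5, Bub3, Ccnb2, Cdc20, Cdc25c, Cks1b, Cks2, Kif11, Kif20a, Kif22, Kif2c, Plk1 and Pttg1. Leaving out each lung in turn, 14 of the 21 calls in (+/+) lungs and 9 of the 16 in (-/-) lungs were never lost. The calls of Bub3, Cdc25c, Cenpa, Kif22, Prc1, Racgap1 and Stmn1 in (+/+) lungs were lost without N, the replicate with the high actin ratio, some of them also without I, J, L, M, O or P (adjusted p = 0.0507 to 0.171). In (-/-) lungs those of Bub3, Ccnf, Cdc25c, Kif22, Kif23, Pttg1 and Smc4 were lost without 1 or more of A, D, E, F, G and H (0.0516 to 0.127). Other genes passed when 1 lung was left out, Ccnf in (+/+) lungs without K or L and Lmnb1 without L (0.0294 to 0.0432), and in (-/-) lungs Cdk1 without B or F, Mki67 or Racgap1 without A, Nek2 without C and Stmn1 without B (0.0334 to 0.0467).

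Genes with a CHR match in the window had a median time difference of -1.24 in (+/+) and -0.76 in (-/-) lungs (n = 23). Those with a window but no match had -0.62 and -0.33 (n = 9), and those with no window listed -0.78 and -0.55 (n = 9). These medians are a description of small sets that share no gene, and the differences of their genes overlap in range. Among genes with no match, Tacc3, Cenpe and Mybl2 were below the filter, where the added 16 shrinks changes. So were Aurka, Bub1, Ttk, Kif4 and Kifc1 among those with a match. The tested genes with no match differed in (+/+) lungs by -1.72 (Pttg1), -1.66 (Birc5), -1.65 (Cks2), -0.82 (Nek2), -0.45 (Mad2l1) and -0.42 (Cdc16). The medians therefore do not show a larger fall with CHR.

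Other lists moved with time beside these genes. Of 64 other mitotic genes measured, 47 were lower at term in (+/+) lungs, with a median of -0.34. Of 41 tested, 7 fell and 2 rose, where 7.99% of all probe sets tested fell and 10.6% rose. In (-/-) lungs the median was -0.12, and 7 fell and 3 rose of 40, where 13% and 13.8% did. Top2a, which untangles sister chromosomes, differed by -2.04 in (+/+) and -1.31 in (-/-) lungs (adjusted p = 0.000358 and 0.00547), and Ckap2, a spindle protein, by -1.51 and -1.60 (adjusted p = 0.00206 and 0.00274).

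DNA replication genes fell for 12 of 28 tested in (+/+) and 16 of 27 in (-/-) lungs, with medians of -0.50 and -0.38 over 46 measured. Mcm5, a subunit of the replicative helicase, differed by -2.01 and -1.83 (adjusted p = 0.000665 and 0.000564), and Tk1, thymidine kinase, by -1.79 and -1.92 (adjusted p = 0.00226 and 0.000313). G1 cyclins, CDK inhibitors and p53 genes had medians of 0.14 and 0.11 over 25 measured, with 2 falling and 4 rising of 15 tested in (+/+) and of 16 in (-/-) lungs. The shares over all probe sets tested were 7.99% falling and 10.6% rising in (+/+), and 13% and 13.8% in (-/-) lungs. Mdm2, the p53 ligase, rose by 1.42 in both on the log2 scale (adjusted p = 0.00418 and 0.00115), and Ccne1, cyclin E, fell by 1.34 and 1.22 (adjusted p = 0.00197 and 0.00181).

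**Figure D4:**
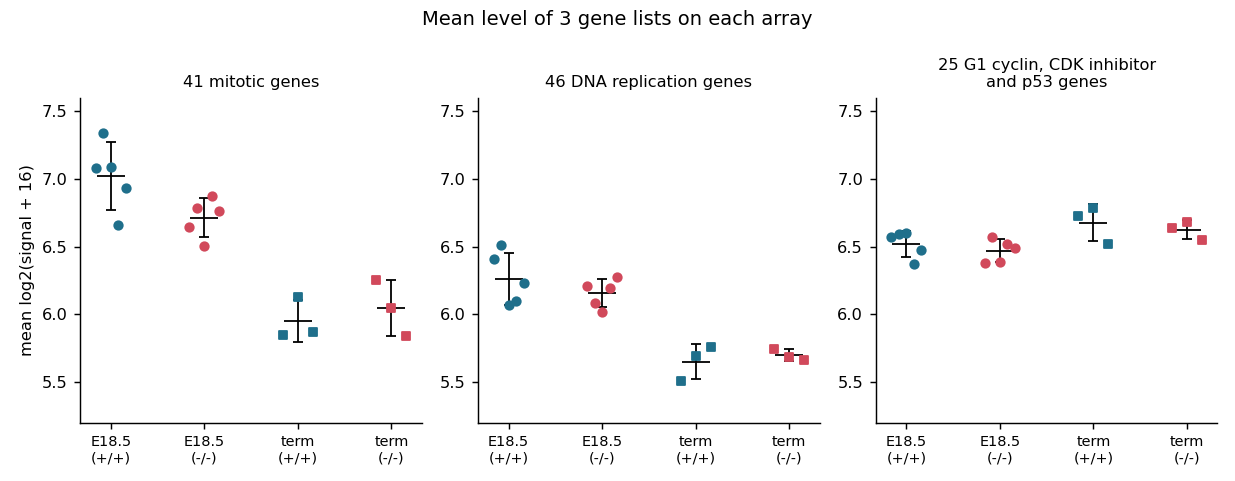
Mean of log2(signal + 16) on each array (vertical axis) for the 41 mitotic, 46 DNA replication and 25 G1 genes, by time and genotype; bars give the mean and SD of the arrays. Mitotic genes averaged 7.02 in E18.5 (+/+) and 6.72 in E18.5 (-/-) lungs against 5.95 and 6.05 at term.

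Markers of other cell types were set beside these genes. The summed signal of 15 erythroid markers (of 18 listed) was 1441.1 to 3890.2 in E18.5 (+/+) and 2074.9 to 2946.1 in E18.5 (-/-) lungs, and 1102 to 1537.9 and 1148.4 to 1740.5 at term. That of 19 thymus and lymphocyte markers (of 23 listed) was 434.1 to 1177.8 and 457.1 to 664.1 at E18.5, and 442.7 to 633.6 and 404.3 to 572.4 at term. The 1177.8 was read on replicate I, where genes of low signal read higher, and the next (+/+) lung gave 689.6. Erythroid sums did not overlap between the times in (-/-) lungs and did in (+/+) lungs, where their mean log2(signal + 16) did not (6.21 to 6.86 at E18.5 and 5.93 to 6.16 at term). The 6.86 was also replicate I, and the next E18.5 (+/+) lung gave 6.39. Thymus sums overlapped in both.

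Endothelial markers, 13 of 14 measured, had higher summed signals at term. Their sums were 3338.1 to 5625.7 in E18.5 (+/+) and 3855.1 to 5941.8 in E18.5 (-/-) lungs, and 5672.9 to 8894.1 and 6917.7 to 7942.5 at term, with no overlap in either genotype. Of the 13, 11 were higher at term in each genotype (medians 0.35 and 0.43). Of those tested, 3 of 12 rose in (+/+) lungs and 2 of 13 in (-/-) lungs, the second near the share over all probe sets. Over all probe sets tested, 7.99% fell and 10.6% rose in (+/+) lungs, and 13% fell and 13.8% rose in (-/-) lungs. Mesenchyme markers, 14 of 15 measured, had medians of -0.25 and -0.42, with 2 of 13 falling and 1 rising in (+/+) and 3 of 13 falling and 1 rising in (-/-) lungs. Their sums were 13041 to 23914.7 and 15461.8 to 23715.5 at E18.5, above the 10259.7 to 12447.2 and 9826.4 to 14524.2 of term. Lung epithelial markers, 12 of 16 measured, had medians of 0.12 and 0.05, with 3 of 11 falling and 3 rising in each genotype, and sums of 21301.4 to 38022.3 and 26071.7 to 42917.7 at E18.5 and 15999.4 to 17904 and 17336.2 to 20819 at term. The part of these cell types in the fall of the mitotic genes was not tested.

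At E18.5 the (-/-) lungs had slightly lower signals than the (+/+) lungs for 39 of the 41 genes, with a median log2 difference of -0.26, against -0.03 over all genes. Mybl2 and Cenpe, both of low signal, were lower only with replicate I, on which they read 84.9 and 44.6. Other signs near 0 turned when 1 lung was left out, as given below. At an adjusted p under 0.05, limma called 0 of the 31 tested, where it called 0.034% of 5879 probe sets. At an unadjusted p under 0.05 it had 6 lower and 0 higher, where 2.62% of all probe sets tested were lower. The 6 were Smc2, Mki67, Smc4, Mad2l1, Cdk1 and Cdc16. The other Mki67 probe set did not share that direction (0.05), and of the 14 probe sets not used, 9 were lower in (-/-) lungs and 5, of Foxm1, Kif20a, Mki67, Mybl2 and Plk1, were higher. Smc2, Cdc16 and Cdk1 are in the study's own lists of genes from these arrays, so their direction is not independent evidence.

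From the signals given above, Smc2 was 1.73-fold lower (-0.79 ± 0.27, limma adjusted p = 0.858), with D and E inside the (+/+) range. It passed the filter, a level of 53.4, only through (+/+) lungs, with medians of 82.7 there and 32.8 in (-/-) lungs. Its place among the 6 is therefore not independent of the filter. Mki67 differed by -0.63 ± 0.26, Smc4 by -0.62 ± 0.25 and Mad2l1 by -0.51 ± 0.23. Cdk1 differed by -0.51 ± 0.21 and Cdc16 by -0.40 ± 0.18, the last being the 1 gene whose genotypes did not overlap. Of all probe sets tested, 0.476% were lower without overlap. An exact permutation test of 5 against 5 lungs, two-sided, gave p = 0.00794 for Cdc16, the smallest it allows, and 0.0476 for Smc2, Cdk1 and Mad2l1. Stmn1 was not among the 6, though it differed by more than all of them but Smc2, with a wider spread (-0.72 ± 0.35, limma adjusted p = 0.858), and its other probe set, of low signal, gave -0.14. Ccnf and Cks1b were the only genes above 0, by 0.02 and 0.01, and both turned below 0 under quantile normalization.

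The number below an unadjusted p of 0.05 depended on single lungs. It was 3 without A, 2 without C, 2 without J, 3 without M, and 9 without I or L. Centring each array on its median gave 2. The median difference was -0.26 without the replicate I that stood apart, -0.22 after centring and -0.40 without L. Other values moved with genotype at E18.5. Lung epithelial markers were higher in (-/-) lungs for 11 of 12, with a median of 0.17, and averaged 9.34 against 9.11 on the log2(signal + 16) scale. Endothelial markers were higher for 9 of 13, with a median of 0.16, and limma had 0 of either list at an adjusted or an unadjusted p under 0.05. The actin 3′ to 5′ ratio was 1.26 to 1.91 in (-/-) and 1.08 to 1.46 in (+/+) lungs. Cardiac muscle markers, 14 of 15 measured, summed to 34296.2 on replicate M and 1397.6 to 2832.9 on the other (+/+) lungs, and to 9599.6 on E, 4706.9 on C and 1892.9 to 2492.5 on the other (-/-) lungs. At term their sums were 15398.2 on F, 8349.5 on O and 1597.2 to 2270.9 on the others. The part of these values in the difference was not tested.

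**Figure D5:**
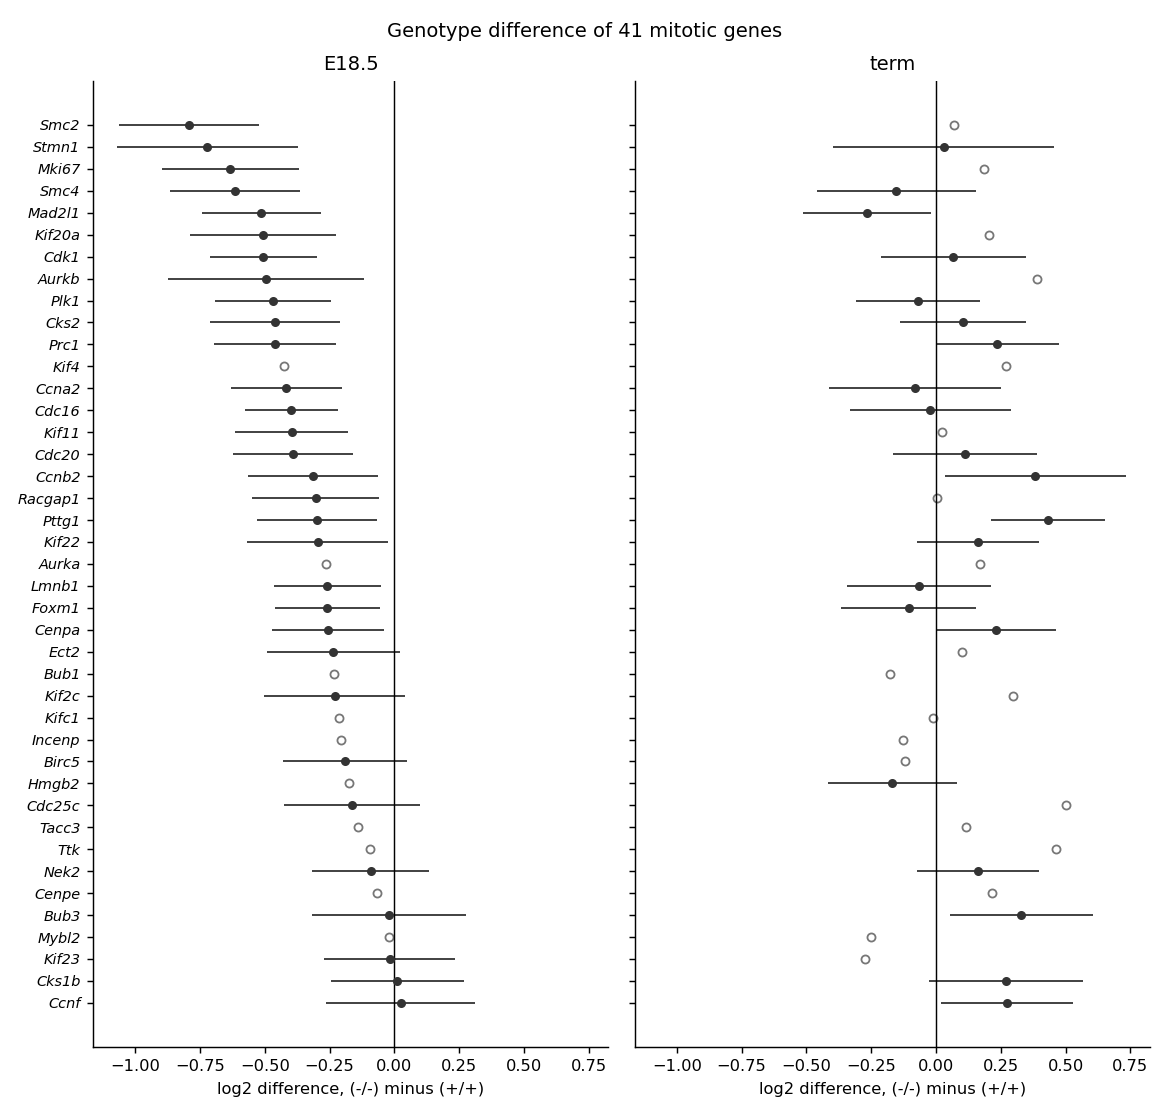
Log2 difference of (-/-) minus (+/+) lungs (horizontal axis) for each of the 41 mitotic genes at E18.5 and at term; filled points with bars of 1 SE were tested by limma and open points were below the filter. At E18.5 39 genes lie left of 0 and at term 14.

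At term no difference between the genotypes was called. Of the 41 genes, 14 were lower in (-/-) lungs, with a median of 0.10 against 0.01 over all genes. Of 21 tested, limma called 0 at an adjusted p under 0.05, as it did of all 5885 probe sets (0%). It had 0 at an unadjusted p under 0.05, where 0.68% of all probe sets tested passed in either direction. T1α itself, the deleted gene, differed by -1.86 ± 0.47 and was not called (limma adjusted p = 0.9998). The 0 calls of 3 against 3 lungs therefore do not show that the genotypes were alike. Pttg1 was the highest of those tested (0.43 ± 0.22), then Ccnb2 (0.38) and Bub3 (0.33). The lowest were Mad2l1 (-0.27), Hmgb2 (-0.17) and Smc4 (-0.15, which turned to 0.09 without N). Pttg1 and Kif4 had all 3 (-/-) values above all 3 (+/+) values, which makes 1 of the 21 tested where 1.38% of all probe sets tested did so. For 3 against 3 lungs the exact permutation test cannot go below p = 0.1.

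The genotype difference at term minus that at E18.5 was above 0 for 39 of the 41 genes, with a median of 0.40, against 0.04 over all genes. The same number says that the time difference was more negative in (+/+) than in (-/-) lungs for 39 genes. In limma 0 of 33 passed an adjusted p of 0.05, and 2 were higher at an unadjusted p under 0.05, where 0.666% of 6458 probe sets were. These were Smc2 (0.86 ± 0.41) and Pttg1 (0.73 ± 0.35), and Smc2 passed the filter only through E18.5 (+/+) lungs. The count was 0 without C, F, G, J, M or P, 1 without A, B or N, 4 without K and 5 without H. Without replicate I it stayed 2, with a median of 0.40. The genes called in 1 genotype alone were therefore not shown to differ between the genotypes in their time course.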

How the data were processed

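The 16 arrays held total RNA of mouse lungs, 5 per genotype at E18.5 and 3 per genotype at term, grouped by their labels. The authors made the deposited signal intensity of each probe set with Microarray Suite 5.0 as 1 weighted mean per probe set, with all arrays brought to a common scale. The values are linear, and nothing was counted, so the number of arrays limits the precision. Nothing says more of the lungs' litters, and p-values measure the spread between these samples.

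Of 12488 probe sets, 10833 had 1 symbol, 396 several, 1193 none, and 66 were controls. The signals plus 16 were put on the log2 scale and fitted with limma 3.58.1 (R 4.3.3; lmFit and eBayes with a trend). All probe sets but the controls entered, several for some genes, with Benjamini-Hochberg adjustment over those that passed the filter. Shares of all probe sets tested are over these. Medians over all 8251 genes take 1 probe set each. Fold changes are on the log2(signal + 16) scale and understate changes of low signals. Detection p-values did not enter, and a probe set was tested if its median in 1 group or more exceeded a level of 47.7 to 53.4, set on each comparison's arrays. Genotype comparisons used the arrays of 1 time and time comparisons those of 1 genotype. Exact permutation tests (scipy 1.17.1) were two-sided.

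The genes and lists were chosen with earlier results of these data known. Values on every array are given for genes with an unadjusted p under 0.05 between genotypes, the 3 largest changes each way between genotypes, the 4 largest changes over time, and 1 or 2 genes per role. The script of the fits was tested on simulated data. Alternatives were quantile normalization, centring, pseudocounts, no filter, all arrays in 1 fit, array weights, the methods' t-test, and leaving out each array.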

Additional observations from a re-analysis of the deposited data

Results flagged for a closer look

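Within the E18.5 groups, 7 of 82 gene and group pairs had 1 lung far from the other 4, measured as its gap to the nearest lung over the whole range; chance gives about 1 in 20. Ccnb2 read 813.3 on (-/-) replicate A, where the next lung read 562.8, and Pttg1 read 164.4 on (-/-) replicate C, where the next read 357.6. Cks1b read 444.2 on (+/+) replicate J, above 244.6. On (+/+) replicate K, Nek2 read 216, above 124, Kif2c read 209.2, above 98.9, and Tacc3 read 25.6, above 6.5. Cenpe read 44.6 on (+/+) replicate I, above 10.9, the array on which bacterial controls averaged 35.3. Tacc3 and Cenpe were below the filter on low signals. The causes were not tested.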

How the results depend on the processing

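No paired analysis was possible because the labels name no litter or pair. The counts at an adjusted p under 0.05 stayed within 1.5 times of those reported, and the medians kept their signs, under each alternative, except that the term median ran from -0.03 to 0.21 when 1 lung was left out. At E18.5 the count at an unadjusted p under 0.05, 6, was 2 after centring, 10 with array quality weights, 3 in the methods' t-test and 2 to 9 when 1 lung was left out. The count for the difference between times, 2, was 1 after centring, without a pseudocount and with a pseudocount of 64, 5 with array weights and 0 to 5 when 1 lung was left out. The (+/+) time median, -1.01, was -1.52 without a pseudocount and -0.62 with 64, and the (-/-) median, -0.67, was -0.38 with 64, since a pseudocount shrinks changes of low signals. Of the calls over time, those of Bub3, Prc1 and Racgap1 in (+/+) lungs and of Bub3, Ccnf, Cdc25c, Kif22 and Kif23 in (-/-) lungs were lost under 1 or more other settings (adjusted p = 0.0517 to 0.0959).

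Single genes were tried in each comparison that tested them, 148 differences in all, and 23 of these changed sign under 1 or more alternatives, 70 times, none of them a called difference. At E18.5 Bub3 turned to 0.028 after centring, Kif23 to 0.032 after centring and 0.028 under quantile normalization, Ccnf to -0.046 and Cks1b to -0.0070 under quantile normalization, and Cks1b to -0.035 with array weights. For the difference between times, Birc5 turned to -0.0064 without a pseudocount, Incenp to -0.039 with array weights, and Hmgb2 to -0.060, -0.027 and -0.014 under quantile normalization, centring and a pseudocount of 64. In (-/-) lungs over time, Cdc16 turned to 0.058 after centring and 0.0096 with array weights. The other 57 came from leaving out 1 lung. The ranges at E18.5 were -0.22 to 0.17 for Bub3, -0.14 to 0.26 for Ccnf, -0.12 to 0.24 for Cks1b, -0.14 to 0.16 for Kif23, -0.39 to 0.019 for Kif2c and -0.18 to 0.094 for Nek2. At term they were -0.29 to 0.23 for Ccna2, -0.32 to 0.19 for Cdc16, -0.073 to 0.34 for Cdc20, -0.15 to 0.28 for Cdk1, -0.0032 to 0.49 for Cks1b, -0.037 to 0.24 for Cks2, -0.27 to 0.10 for Foxm1, -0.23 to 0.19 for Lmnb1, -0.22 to 0.12 for Plk1, -0.42 to 0.093 for Smc4 and -0.27 to 0.51 for Stmn1. For the difference between times they were -0.090 to 0.23 for Birc5, -0.014 to 0.48 for Cks1b, -0.013 to 0.36 for Foxm1, -0.19 to 0.16 for Hmgb2 and -0.034 to 0.22 for Incenp, and for Cdc16 in (-/-) lungs over time -0.19 to 0.14. The causes were not tested.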
